A study of Mus musculus with 3 samples.

Results

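Mpo, Elane, Prtn3 and Ctsg encode the main antimicrobial proteins of the azurophil (primary) granules of neutrophils, and these 4 genes of the 27998 counted were followed through 3 single-cell RNA-seq libraries of mouse bone marrow. They were chosen by name, as azurophil granule genes, with earlier results of these data known. The libraries were made from CD133+ bone marrow cells of C57BL/6 mice, isolated by FACS, and were labelled young (3 months), control (also 3 months) and old (27 months). The design text of the study gives 18.5 months for the old mice, and this difference could not be settled from the sources used here. Cells of 3 mice were pooled for each library. No genotype or treatment other than age was given for any of the groups. With 1 library per group, the spread between mice could not be measured, and age, mice and library preparation cannot be told apart. All differences below are therefore given with intervals that cover counting error only, and no test was made.

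Azurophil granules are filled at the promyelocyte stage, the first stage of neutrophil development with visible granules. Mpo encodes myeloperoxidase, the haem enzyme that makes hypochlorous acid from hydrogen peroxide. Elane (neutrophil elastase), Prtn3 (proteinase 3) and Ctsg (cathepsin G) encode serine proteases that are activated by removal of a short N-terminal peptide by cathepsin C and are stored in the granules. Their transcription ends before the cells make specific (secondary) granules, whose proteins include lactoferrin (Ltf), cathelicidin (Camp), Ngp and lipocalin 2 (Lcn2). Still later, maturing neutrophils express Retnlg and Mmp8.

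In the GRCm38 build with GENCODE M21 annotation, Mpo (ENSMUSG00000009350) lies on chromosome 11 from 87793581 to 87804413 on the plus strand, with the antisense gene Gm11505 on the other strand. The gene of lactoperoxidase, Lpo, starts 2014 bases beyond its end. Prtn3 (ENSMUSG00000057729) lies on chromosome 10 from 79874476 to 79883174, and its annotated span overlaps Plppr3 on the other strand. Elane (ENSMUSG00000020125) follows it 3072 bases further along the same strand, from 79886247 to 79888215, and is itself followed by Cfd, the gene of complement factor D. Ctsg (ENSMUSG00000040314) lies on the minus strand of chromosome 14 from 56099881 to 56102574, between the mast cell protease gene Mcpt8 and the granzyme gene Gzme. Whether the counting separated the strands is not given in the sources used here, so UMIs assigned to Mpo or Prtn3 may include reads from the overlapping genes.

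The 4 genes lie at 3 loci, and their promoters are shown because the genes were lost one after another along differentiation while being expressed in the same cells. Each sequence below is the RefSeq promoter of 300 bases (250 before the transcription start and 50 after it) in GRCm38.p6, written 5′ to 3′ on the strand of the gene. The positions are chr11:87793534-87793833 (plus strand) for Mpo, chr10:79886062-79886361 (plus) for Elane, chr10:79879417-79879716 (plus) for Prtn3 and chr14:56102525-56102824 (minus) for Ctsg. Capitals mark AGGAAGT, a motif bound by PU.1 and other ETS factors.
Mpo: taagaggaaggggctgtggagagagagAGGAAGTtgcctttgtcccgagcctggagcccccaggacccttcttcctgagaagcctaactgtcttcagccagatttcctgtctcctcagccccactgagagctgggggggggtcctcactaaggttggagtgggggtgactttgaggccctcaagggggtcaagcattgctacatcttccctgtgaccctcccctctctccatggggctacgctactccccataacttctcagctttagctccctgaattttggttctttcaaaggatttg
Elane: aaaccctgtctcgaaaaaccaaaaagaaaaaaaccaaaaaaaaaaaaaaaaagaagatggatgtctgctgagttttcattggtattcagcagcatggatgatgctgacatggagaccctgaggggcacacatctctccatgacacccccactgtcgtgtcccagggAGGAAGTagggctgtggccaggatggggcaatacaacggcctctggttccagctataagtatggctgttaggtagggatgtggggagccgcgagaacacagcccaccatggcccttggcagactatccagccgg
Prtn3: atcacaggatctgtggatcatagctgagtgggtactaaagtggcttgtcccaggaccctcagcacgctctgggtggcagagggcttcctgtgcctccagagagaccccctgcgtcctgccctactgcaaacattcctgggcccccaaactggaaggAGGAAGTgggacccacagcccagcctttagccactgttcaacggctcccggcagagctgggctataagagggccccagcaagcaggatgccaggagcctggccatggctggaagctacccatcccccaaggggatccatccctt
Ctsg: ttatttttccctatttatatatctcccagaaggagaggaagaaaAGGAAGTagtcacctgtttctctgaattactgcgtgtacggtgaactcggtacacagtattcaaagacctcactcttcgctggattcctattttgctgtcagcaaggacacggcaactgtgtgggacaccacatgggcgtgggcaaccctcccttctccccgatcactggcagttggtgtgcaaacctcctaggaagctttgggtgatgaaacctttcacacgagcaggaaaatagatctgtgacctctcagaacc
AGGAAGT was found on the gene's own strand in the promoters of 4 of the 4 genes, beginning 223 bases before the start of Mpo, 84 before Elane, 94 before Prtn3 and 206 before Ctsg. On either strand, it was held by 9.35% of the 32851 RefSeq promoters of this length. This motif was chosen after the sequences had been read. Elane and Prtn3, the neighbours on chromosome 10, also shared AACGG, a core motif of MYB, 50 and 55 bases before their starts. They likewise shared TATAA, the TATA box motif, 31 and 32 bases before them. AACGG was not found in the other 2 promoters and was held by 17.4% of all promoters. TATAA was held by 24.9% of all promoters and was also found on the opposite strand of Ctsg, 236 bases before its start. TGTGGT, a RUNX motif held by 16.8% of promoters, was found on the opposite strand of Ctsg. TTGCNNAA, a C/EBP motif held by 10.8% of promoters, was not found in these 4 windows. Both strands were searched for each motif. A match is a description of the letters and not evidence of binding.

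The matrices held 8362 cells in the young library, 10869 in control and 10597 in old. After limits on genes, mitochondrial share and UMI count, 7378, 9780 and 9681 cells were kept, with medians of 10174.5, 9560.5 and 12690 UMIs (unique molecular identifiers, each standing for 1 captured mRNA). Cells in which 3 or more markers of a different blood lineage were found made up 15% of the kept young cells, 1.51% of control and 1.15% of old. They are called below cells with markers of another cell type, and cells with fewer such markers were not set apart. Of the endothelial markers, Cdh5, Kdr, Emcn and Tek had between 0 and 0.495 UMIs per 1000000 UMIs (CPM) in each library. Pecam1, the other marker of this list, had 3.69 CPM in young, 1.56 CPM in control and 2.99 CPM in old. Prom1, the gene of CD133, had 43.8 to 52.6 CPM. The erythroid markers included the haemoglobin genes Hbb-bs, Hba-a1 and Hba-a2, and markers were called on full counts. These genes had 366, 299 and 146 CPM in young, 89.8, 70.2 and 40.2 CPM in control, and 18.2, 13.6 and 7.93 CPM in old. The part of stray haemoglobin RNA in the share of cells with markers of another cell type was not tested. Of the cell barcodes, 125 were found in both young and control, 120 in both young and old, and 161 in both control and old.

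The first question was how the levels of the 4 genes differed between the libraries. Together they made up 1.35% of all UMIs in the young library, 1.3% in control and 0.962% in old. From young to old the CPM of Mpo and Elane differed by more than 1.5 times, that of Prtn3 was slightly lower and that of Ctsg slightly higher.
Mpo had 2502 CPM (95% interval 2490 to 2513) in young, 2043 CPM (2034 to 2052) in control and 1431 CPM (1424 to 1437) in old. The old level was 0.572 times the young level, a log2 ratio of -0.81 (-0.82 to -0.80), while the control level was 0.817 times the young level.
Elane had 7529 CPM (7509 to 7548) in young, 7117 CPM (7101 to 7134) in control and 4701 CPM (4689 to 4714) in old. The log2 ratio of old over young was -0.68 (-0.68 to -0.67), and that of control over young was -0.081 (-0.086 to -0.076). In CPM over all kept cells, the 2 libraries of 3 months were thus close to each other for Elane and apart from the old library.
Prtn3 had 2407 CPM (2396 to 2418) in young, 2825 CPM (2814 to 2836) in control and 2277 CPM (2269 to 2286) in old. The control library was the highest, and the young and old libraries differed by a log2 ratio of -0.08 (-0.089 to -0.072).
Ctsg had 1087 CPM (1080 to 1095) in young, 1036 CPM (1030 to 1042) in control and 1212 CPM (1205 to 1218) in old. It was the only one of the 4 whose CPM was highest in the old library, with a log2 ratio of 0.16 (0.14 to 0.17) over young and 0.23 (0.21 to 0.24) over control.

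**Figure D1:**
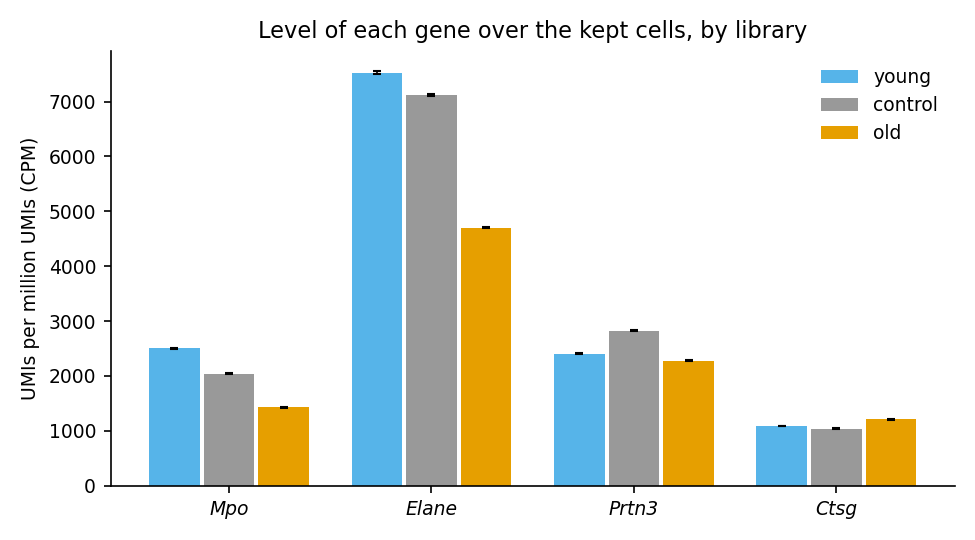
Level of Mpo, Elane, Prtn3 and Ctsg in CPM (vertical axis) in the young, control and old libraries (bars), with 95% intervals for counting error. Mpo and Elane had their lowest bars in the old library (1431 and 4701 CPM), Prtn3 its highest in control (2825 CPM) and Ctsg its highest in old (1212 CPM).

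A gene was counted as changed when its CPM differed by more than 1.5 times. Genes under 10 CPM in both libraries of a pair were not compared. By this limit 2 of the 4 genes, Mpo and Elane, were lower in old than in young, where 14.7% of the 5761 genes compared were lower, and 0 of the 4 were higher, where 4.36% were higher. Over all compared genes the median log2 ratio was -0.15, and Mpo lay at percentile 7.45 and Elane at percentile 10.9 of them. Between control and young, 0 of the 4 genes passed the limit, while 6.62% of 5728 genes were lower and 1.59% were higher. This too depended on the weighting of cells. With the 6 bins of Retnlg and Mmp8 described below weighted equally, the log2 ratio of control over young was -0.59 for Mpo, past the limit. It was -0.41 for Elane, -0.052 for Prtn3 and -0.42 for Ctsg. The calls of Mpo and Elane as lower in old than in young also depended on how cells were chosen and scaled. Without the limits on the UMI count the log2 ratio of old over young for Elane was -0.56, no longer past 1.5 times. As UMIs per cell without scaling for depth those of Mpo and Elane were -0.52 and -0.39, of which neither was past it. The direction of Prtn3 was not stable either, since its log2 ratio became 0.043 without the UMI limits and 0.21 as UMIs per cell. With the barcodes found in more than 1 library left out, the log2 ratios of old over young were -0.80 for Mpo, -0.68 for Elane, -0.077 for Prtn3 and 0.16 for Ctsg.

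The UMIs of all 4 genes came largely from a minority of the cells. For each gene, the 10% of kept cells with the most UMIs of it were taken, without scaling for depth. They held between 56.9% and 60.4% of the Mpo UMIs in the 3 libraries, 49.6% to 51.8% of Elane, 45.9% to 48% of Prtn3 and 67.1% to 70.5% of Ctsg. The median cell had 4.4, 4.87 and 3.58 Mpo UMIs per 10000 in young, control and old, and the cell at the 90th percentile had 89.2, 65.3 and 42.8. For Ctsg the medians were 1.89, 2.33 and 2.68, and the 90th percentiles were 36, 28.9 and 30.5. By the share held by the top 10% of cells, Ctsg was the most unevenly spread of the 4 genes in each library. Relative to the median, however, the 90th percentile was higher for Mpo than for Ctsg in each library.

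The second question was in which order the genes were lost as cells mature, measured along the sum of Retnlg and Mmp8. Each cell was thinned to 3000 UMIs and placed in a bin of 0, 1, 2 to 3, 4 to 7, 8 to 15, or 16 and more UMIs of these 2 genes. In the young library these bins held 1978, 2328, 2184, 450, 136 and 302 cells. Bin 0 held 26.8% of the young cells, 51.1% of control and 17.2% of old, and the highest bin held 4.09%, 2.54% and 10.6%. The old library, in which Mpo and Elane were lowest, thus had the largest share of cells in the highest bin. The part of this in their levels was not tested. Ratios within bins do not hold stage fixed, since the bins of 0 to 3 UMIs held cells from early to late in the specific granule order below. Within bin 0 the log2 ratio of old over young was -0.55 for Mpo, -0.41 for Elane, 0.14 for Prtn3 and 0.42 for Ctsg. In each library all 4 genes first fell below 50% of their level in bin 0 in the bin of 4 to 7, and none of them fell below 10% in any bin. The fall was not even, since in the young bin of 8 to 15, with 136 cells, Ctsg was again at 55.2% and Prtn3 at 53.5%. This order of bins therefore did not separate the genes by where their loss began.
In the highest bin of the young library, 30.0% (28.6 to 31.4) of the bin 0 level of Mpo was left, 31.3% (30.5 to 32.1) of Elane, 34% (31.9 to 36.3) of Ctsg and 34.7% (33.2 to 36.3) of Prtn3. In control, 30.9% (29 to 32.8) of Mpo was left, 31.7% (30.7 to 32.8) of Elane, 34.4% (32.7 to 36.2) of Prtn3 and 36.6% (33.8 to 39.7) of Ctsg. In both libraries the counting intervals of neighbours in these orders overlapped.
In the old library less was left, with 13.7% (13.4 to 14) of Elane, 15.4% (14.8 to 16.1) of Ctsg, 16.9% (16.2 to 17.5) of Mpo and 17.4% (16.9 to 18) of Prtn3. There the intervals of Mpo and Prtn3 overlapped, and those of the other neighbours did not. These levels were summed over cells. In young and control the summed Elane level of the bin, 3027 and 2631 CPM, exceeded that of the cell at the 90th percentile, 18.6 and 19.9 UMIs per 10000. The medians in young, control and old were closer, at 3.93, 4.13 and 2.75 for Mpo and 8.56, 10.4 and 6.96 for Elane. For Prtn3 they were 3.33, 5.48 and 4.3, and for Ctsg 1.91, 2.17 and 2.07. At most 10% was left in the highest bin for 0 of the 4 genes in each library. This was rare over all genes, at 0.0695% in young, 0.131% in control and 0.191% in old.

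**Figure D2:**
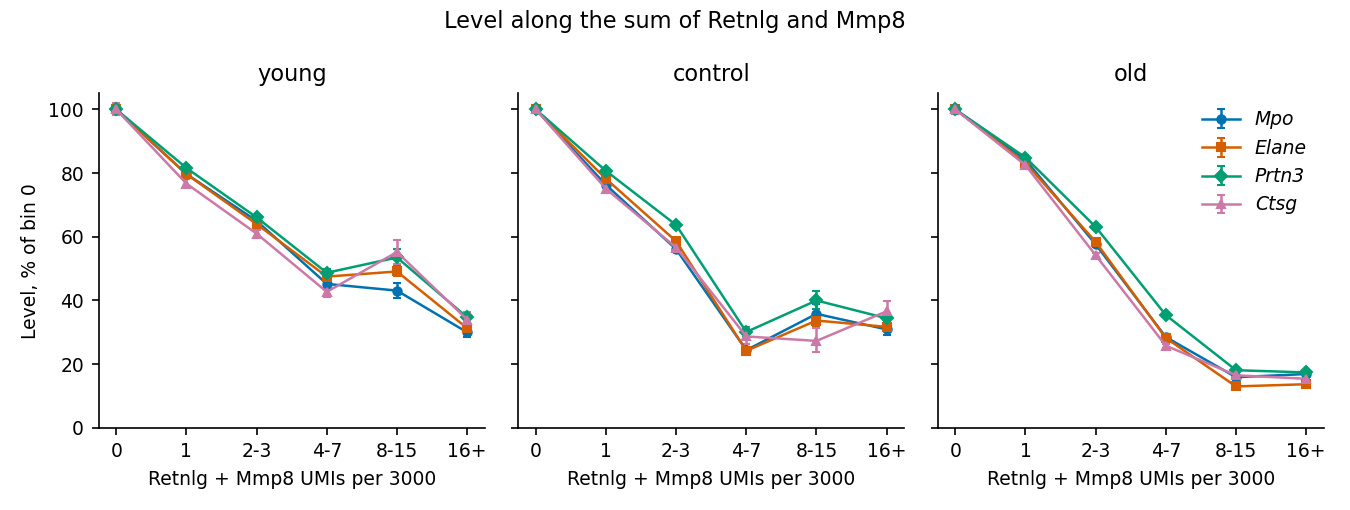
Level of each gene as a percent of its level in bin 0 (vertical axis) along 6 bins of the sum of Retnlg and Mmp8 UMIs per 3000 (horizontal axis), in 1 panel for each library, with 95% counting intervals. The 4 lines stayed close together in each panel and ended between 30.0% and 34.7% in young, between 30.9% and 36.6% in control and between 13.7% and 17.4% in old. Levels were summed over the cells of a bin and can rest on a minority of them.

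UMIs of the 4 genes were also found in cells that should lack them. Cells with at least 3 markers of B progenitors or at least 3 of NK and T cells, which should not make azurophil proteins, numbered 218 in young, 21 in control and 8 in old. In the young library their median level was 3.02 Mpo, 7.17 Elane, 2.9 Prtn3 and 1.26 Ctsg UMIs per 10000. In the highest Retnlg and Mmp8 bin of the same library the medians were 3.93, 8.56, 3.33 and 1.91, at median depths of 9103 UMIs for the lymphoid marker cells and 4948 for the highest bin. At 3000 UMIs per cell, 89.4% of the lymphoid marker cells had an Elane UMI against 95.4% of the highest bin, and 61% against 66.9% had an Mpo UMI. Summed over cells, Mpo had 1547 CPM in the lymphoid marker cells and 964 CPM in the highest bin. By their medians, the levels left in the most mature young cells were thus close to those in the lymphoid marker cells. They are not read here as expression. The sums were not close, and the young lymphoid marker cell at the 90th percentile had 131 Elane UMIs per 10000, against 18.6 in the highest bin. Some lymphoid marker cells thus held far more than the median. Mpo had 2443 CPM in those of control and 436 CPM in those of old, against 742 and 371 CPM in the highest bins. Retnlg itself had 262 CPM in bin 0 and 611 CPM in the lymphoid marker cells of the young library. Nkg7, 1 of the 7 NK and T markers, was itself expressed together with the azurophil genes, as given below, and its part in these values was not tested.

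Since low sums of Retnlg and Mmp8 were also found in cells of other lineages, the cells with 0 to 3 UMIs of them and without markers of another cell type were also ordered by the sum of Ltf, Camp, Ngp and Lcn2, and cut into 10 equal groups in each library. This order was added after the data had been seen. Along it the 4 genes fell one after another, and the sequence was Ctsg, then Mpo, then Prtn3 and Elane, in each of the 3 libraries.
In the first group of cells Ctsg had 5857 CPM in young, 5480 CPM in control and 7798 CPM in old. In the second group 48.6% (47.8 to 49.5), 32.2% (31.6 to 32.7) and 36.1% (35.6 to 36.6) of this was left, and in the third group 14.4%, 9.7% and 13%. Ctsg was the only one of the 4 below 50% in the second group in each library, but with the level of the last group subtracted Mpo was also below it, at 49.2% in control and 49% in old.
Mpo had 10904, 8941 and 7459 CPM in the first group. It kept 72.4% (71.5 to 73.2), 51.5% (51 to 52.1) and 51% (50.4 to 51.7) in the second group and 29.5%, 18.1% and 23.2% in the third.
Prtn3 had 8701, 9565 and 8816 CPM in the first group. It kept 82.5% (81.5 to 83.5), 67.5% (66.9 to 68.2) and 63.4% (62.8 to 64.1) in the second group and 43.1%, 34% and 38.6% in the third.
Elane had 26548, 24252 and 18989 CPM in the first group. It kept the most in the second group, with 90.5% (89.9 to 91.1), 75.2% (74.8 to 75.7) and 72.7% (72.2 to 73.2), and in the third, with 50.3%, 38% and 42.2%.
In these 2 groups the counting intervals of the 4 genes did not overlap in any library. In the fourth group Prtn3 and Elane were close, at 18.1% and 18.4% in young, 19% and 18.5% in control, and 25% and 23.8% in old. From the fifth group on more of Prtn3 than of Elane was left, so by this measure these 2 genes changed places in the order. With the level of the last group subtracted the gap was smaller. In the fifth group 6.24% of Prtn3 and 6.11% of Elane was then left in young. The values were 4.85% and 4.42% in control, and 9.54% and 7.67% in old.
With fixed windows of the specific granule sum in place of groups of equal size, 11.3% of Ctsg, 22.7% of Mpo, 37.9% of Prtn3 and 42.9% of Elane was left on average over the libraries in the window from 200 to under 300 UMIs per 3000, relative to the cells with under 50 UMIs.
In the last group between 2.22% and 7.28% of the first group was left for the 4 genes in the 3 libraries. At most 10% was left for 4 of the 4 genes in each library, against 4.53% of all genes tested in young, 4.46% in control and 3.69% in old.

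**Figure D3:**
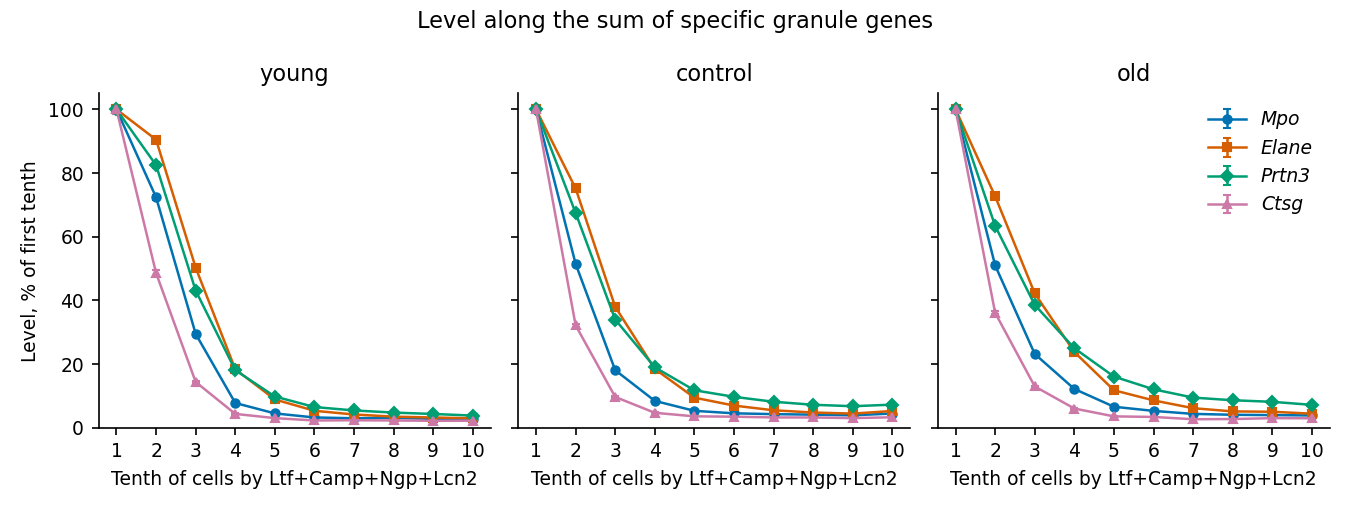
Level of each gene as a percent of its level in the first group (vertical axis) along 10 equal groups of cells ordered by the sum of Ltf, Camp, Ngp and Lcn2 (horizontal axis), in 1 panel for each library, with 95% counting intervals. The line of Ctsg fell first (14.4%, 9.7% and 13% in the third group), then that of Mpo (29.5%, 18.1% and 23.2%), and those of Prtn3 and Elane fell last and crossed near the fourth group.

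The proportions of Mpo, Prtn3 and Ctsg to Elane changed along the specific granule order, and the cause was not tested. In the first group of young cells there were 41.1 Mpo, 32.8 Prtn3 and 22.1 Ctsg UMIs for every 100 Elane UMIs, and in the third group 24.1, 28.1 and 6.32. In the last group the values were 38.9, 42.3 and 16.5, and over all kept young cells they were 33.2, 32 and 14.4. The same fall and return of Ctsg was seen in control, with 22.6, 5.77 and 14.2 in these groups, and in old, with 41.1, 12.6 and 27.8. The part of free RNA in the late values was not tested. Prtn3 in the last group stood above its value over all kept cells in each library, at 54.2 against 39.7 per 100 Elane in control and 75.5 against 48.4 in old.

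The proportion of Ctsg to Elane set the old library apart from both others. Over all kept cells there were 14.4 Ctsg UMIs (14.3 to 14.5) per 100 Elane UMIs in young, 14.6 (14.5 to 14.7) in control and 25.8 (25.6 to 25.9) in old. This proportion was looked at after the levels were known, and it needs no scaling for depth. In cells with under 50 specific granule UMIs per 3000, the least mature cells by this measure, it was 21.9 (21.7 to 22.2) in young, 23.9 (23.6 to 24.1) in control and 44.2 (43.8 to 44.7) in old. In each of the 7 windows of the specific granule sum the old value was the highest, with 11.6 to 44.2 in old, 5.62 to 23.9 in control and 4.99 to 21.9 in young. Prtn3 per 100 Elane was also highest in old in each window, at 47.4 in the first against 39.8 in control and 32.7 in young, whereas Mpo per 100 Elane was 41.2 in old, 37.9 in control and 41 in young.

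**Figure D4:**
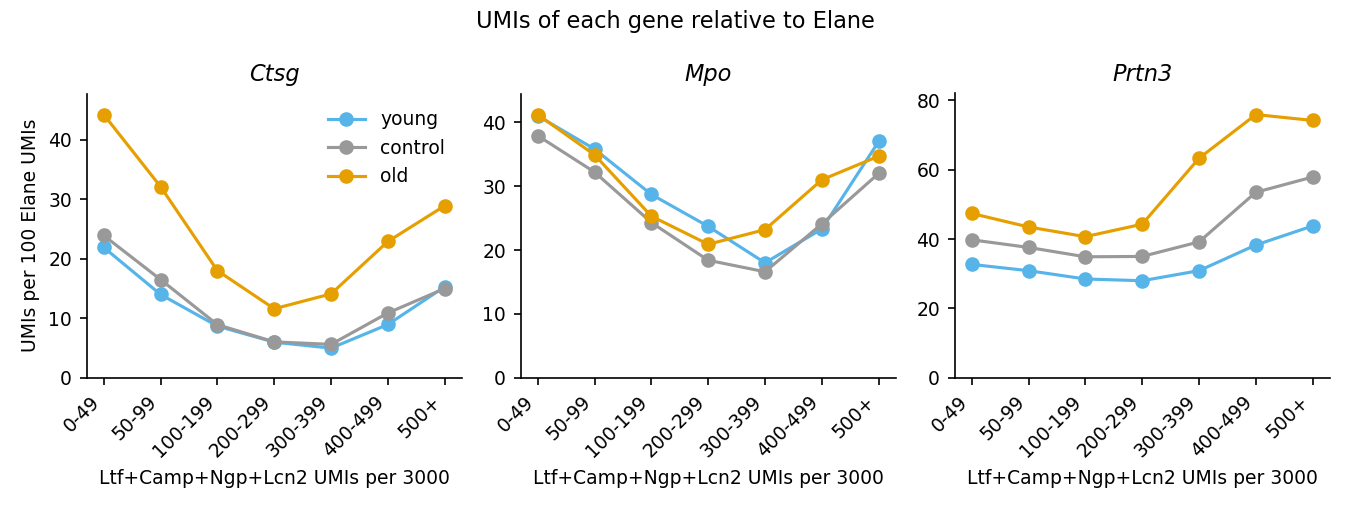
UMIs of Ctsg, Mpo and Prtn3 (1 panel each) for every 100 Elane UMIs (vertical axis) in 7 windows of the sum of Ltf, Camp, Ngp and Lcn2 UMIs per 3000 (horizontal axis), with 1 line for each library. The old line lay above the others in each window for Ctsg, starting at 44.2 against 21.9 and 23.9, and for Prtn3, starting at 47.4 against 32.7 and 39.8, but not for Mpo.

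The libraries also differed in the share of cells with a low specific granule sum. The lowest sum among the ordered cells was 9 in young, 13 in control and 23 in old. A fixed limit on the sum therefore need not mark the same stage in each library. Cells with under 50 specific granule UMIs made up 10.4% of the ordered young cells, 6.83% of control and 5.86% of old. Within these cells Mpo had 10852, 9217 and 7948 CPM and Elane 26483, 24336 and 19300 CPM in young, control and old, so that the order of the libraries was that of the whole. Prtn3 had 8668, 9693 and 9141 CPM and Ctsg 5809, 5805 and 8535 CPM there. In this window Ctsg was thus nearly equal in the 2 libraries of 3 months and higher in old. By groups of equal size, the log2 ratio of old over young in the first group was -0.55 for Mpo, -0.48 for Elane, 0.019 for Prtn3 and 0.41 for Ctsg. The ratio of control over young was -0.29 for Mpo in the first group but -0.78 in the second and -0.99 in the third, where that of old over young was -1.05 and -0.89. In these groups the Mpo level in the control library, of the same labelled age as young, was therefore about as far from young as the old level was. These groups spanned different ranges of the specific granule sum, however, with 48 to 172 in the second young group and 72 to 216 in control. In the fixed window from 100 to 199 Mpo had 6064, 4345 and 3095 CPM in young, control and old. From 200 to 299 it had 3176, 2012 and 1341 CPM. In both windows control thus lay between young and old. For Ctsg the ratio of control over young was -0.69 in the second group and -0.67 in the third, where that of old over young was -0.018 and 0.26. In the fourth group these ratios of Ctsg were 0.013 and 0.88. In the fixed window from 100 to 199 Ctsg had 1837, 1598 and 2201 CPM in young, control and old, so control was nearer to young there. Camp, 1 of the genes that order the cells, had 53615, 52610 and 37081 CPM in young, control and old, and whether a window holds the same stage in each library was not tested.

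The third question was whether the 4 genes were expressed by the same cells. Across cells without markers of another cell type, the counts thinned to 3000 UMIs rose and fell together. Pearson's r on the log scale was highest for Elane and Prtn3, at 0.868 over 6268 young cells, 0.832 over 9632 control cells and 0.804 over 9570 old cells. Mpo and Elane had 0.835, 0.782 and 0.777. The lowest values were 0.751 in young, for Elane and Ctsg, and 0.698 in control and 0.69 in old, for Prtn3 and Ctsg. These are descriptions, since cells of a library share their free RNA and their depth.
Of the 10% of cells with the most Mpo, 71.7% in young, 79% in control and 82.9% in old were also among the 10% with the most Ctsg. For Mpo and Elane the shares were 64.7%, 70.6% and 74.7%, and for Elane and Prtn3 they were 59.9%, 67.1% and 72%. At the top 10%, the cells highest for one gene were thus mostly, but not always, those highest for another. At the top 5% the shares were lower, at 47%, 54.1% and 63.2% for Mpo and Ctsg. They were 43.1%, 49.1% and 50.4% for Mpo and Elane, and 35.1%, 44.1% and 50.2% for Elane and Prtn3.

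UMIs of the 4 genes were common also in cells that should lack them. At 3000 UMIs, UMIs of 4 of the 4 genes were found in 37.2% of young cells without markers of another type and in 18.8% of the young lymphoid marker cells. A limit was therefore set for each gene and library at the 95th percentile of its level in the highest Retnlg and Mmp8 bin, after the data had been seen. It used full counts per 10000 UMIs. The highest bin had median depths of 4948, 4434.5 and 6871 UMIs in young, control and old, against 10174.5, 9560.5 and 12690 over all kept cells. The part of depth in the limits was not tested. Above the limit lay 20.8% of young cells, 1926 of the 9632 control cells and 21.8% of old cells for Ctsg. The shares in young, control and old were 26.2%, 24.5% and 27.3% for Mpo, 28.7%, 32% and 41.1% for Prtn3, and 29.8%, 36.8% and 35.6% for Elane. The limits themselves were highest in young and lowest in old for each gene. They were 54.3, 24.7 and 15.2 UMIs per 10000 for Elane, 19.9, 18.2 and 10.4 for Prtn3, 13.3, 11.9 and 7.11 for Mpo, and 7.68, 6.9 and 6.25 for Ctsg. Shares above them are therefore not directly comparable between libraries.
Outside the highest bin, 21% of young cells, 19.1% of control and 22.1% of old were above the limit for 4 of the 4 genes, and 67.4%, 60.3% and 51.4% for none of them. Cells above it for 1 gene alone were fewer, at 3.26%, 7.44% and 10.4%.
At this limit the sharing was nested. Of the cells above the limit for Ctsg, 98.5% in young, 94.2% in control and 93.7% in old were also above it for Mpo, and 98.1%, 96.4% and 95.8% for Elane. In the other direction 68.3%, 52.2% and 58% of the Elane cells were above it for Ctsg, and 86.5%, 65% and 73.8% for Mpo. Of the Mpo cells 98.5%, 98% and 96.6% were above it for Elane. At the 95th percentile, nearly all cells above the limit for Ctsg were thus above it for Mpo and Elane, whereas a large part of the Elane cells were not above it for Ctsg.
Both the size of these groups and the direction of the nesting rested on the limit. At the 99th percentile the limit of Elane was 310.4, 209 and 40.4 UMIs per 10000 in young, control and old. At the 99th percentile, 28.7% of the Mpo cells in young, 64.9% in control and 97.1% in old were above the limit for Elane, and 27.4%, 68.2% and 98.4% of the Ctsg cells were. In the other direction 76.3%, 91.3% and 82.9% of the Elane cells were above it for Mpo, and 55.6%, 80.8% and 66.6% for Ctsg. In young and control the nesting of Mpo and Elane, and that of Ctsg and Elane, thus turned round. Of the Ctsg cells 76.8%, 94.7% and 97.1% were above it for Mpo. At this limit 0.836% of young cells, 7.37% of control and 18.8% of old were above it for 4 of the 4 genes.

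**Figure D5:**
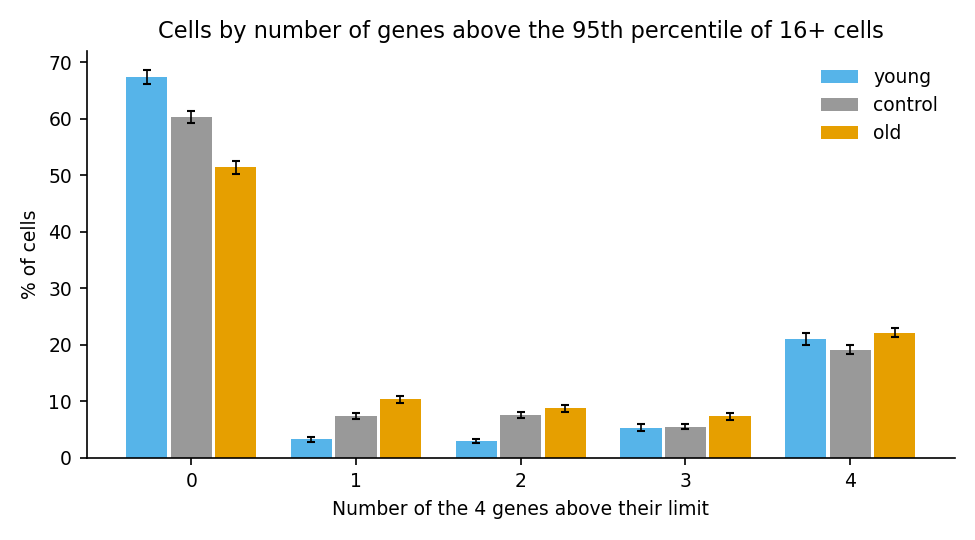
Share of cells (vertical axis) in the young, control and old libraries (bars) by the number of the 4 genes above their limit, the 95th percentile of the cells with 16 or more Retnlg and Mmp8 UMIs, with exact 95% binomial intervals. Most cells were above it for 0 genes (67.4%, 60.3% and 51.4%) or for all 4 (21%, 19.1% and 22.1%), and fewer lay between. The limits were set in each library and differ, so the bars of different libraries are not directly comparable.

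Among 1612 genes with at least 50 CPM in each library, the level across cells was most like the sum of the 4 genes for Srgn and Nkg7. Srgn encodes serglycin, the proteoglycan that binds proteases in granules, and had a Pearson r of 0.866 in young, 0.83 in control and 0.817 in old. Nkg7, which encodes a granule membrane protein of cytotoxic lymphocytes, had 0.848, 0.814 and 0.819. The next 8 genes all encode ribosomal proteins, from Rpl32 with a median r of 0.804 to Rps19 with 0.788. The 2 kinds of gene fell differently along the specific granule order. In the third group 33.5%, 21.4% and 28.6% of Srgn was left in young, control and old, between the values of Ctsg and Prtn3, but 57.3%, 59.2% and 67.3% of Rpl32.

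Of the genes that process and store the proteins, 5 of 5 were compared, and 0 were higher and 2 lower in old than in young (median log2 ratio -0.45, against -0.15 over all genes, of which 4.36% were higher and 14.7% lower). Ctsc, the gene of cathepsin C, had 41.9 CPM in young, 11.9 CPM in control and 21.9 CPM in old, and was past the limit, lower than in young, in both other libraries. The 5 monocyte markers were also highest in young, at 5.85 to 86.7 CPM against 0.563 to 6.3 CPM in control and 0.661 to 12 CPM in old, and their part in this was not tested. In the first group of the specific granule order, from which cells with 3 or more markers of another cell type were left out, Ctsc had 24.4, 21.2 and 21 CPM. Calr, the gene of the chaperone calreticulin, had 247, 284 and 163 CPM and passed the limit in old only. Srgn, with 611, 503 and 572 CPM, passed the limit in neither comparison. Along the specific granule order at most 10% was left in the last group for 2 of these 5 genes in young, Srgn and Calr. In control and in old it was 1 of 5, Srgn, with Calr at 10.5% and 11.5%. Over all genes tested the share was 4.53% in young, 4.46% in control and 3.69% in old. In the third group Calr had 23.9%, 20.6% and 18.6% left.
Of 8 other constituents of azurophil granules or lysosomes 7 were compared between old and young, with 0 higher and 1 lower (median log2 ratio -0.28), a share near the 14.7% of all genes that were lower. This was Arsb, a lysosomal sulfatase, at 31.8, 20.8 and 14.9 CPM in young, control and old. Prss57, another serine protease of azurophil granules, had 167, 158 and 149 CPM. Along the specific granule order 52.8%, 38.3% and 45.7% of Prss57 was left in the third group, about as much as of Elane. At most 10% was left in the last group for 1 of the 8 in young and in control, the acid glucosidase gene Gaa. In old it was 0, with Gaa at 11.1%. Over all genes tested the share was 4.53% in young, 4.46% in control and 3.69% in old. Gaa had 16.2, 14.8 and 12.3 CPM in the first group of young, control and old, near the minimum of 10 CPM. Lyz2, the lysozyme that is made through several stages, went the other way, from 1353 to 17678 CPM between the first and the last group in young.
Of 3 inhibitors of the proteases, 1 was higher and 0 lower in old than in young (median log2 ratio 0.38), where 4.36% of all genes were higher and 14.7% lower. This was Serpinb1a, an intracellular inhibitor of elastase, proteinase 3 and cathepsin G, with 1557 CPM in young, 1808 CPM in control and 2456 CPM in old. It did not fall with its targets. In the last group 83.3%, 114% and 93.1% of its first group level was left, against 2.98%, 5.29% and 4.44% for Elane.
Of 6 transcription factors of this stage, 0 were higher and 3 lower in old than in young (median log2 ratio -0.40), where 4.36% of all genes were higher and 14.7% lower. Between control and young 0 of the 6 passed the limit, where 6.62% of all genes were lower and 1.59% higher. Cebpa, needed for granulocyte precursors to form, had 16.8, 13.4 and 6.92 CPM in young, control and old, Myb had 53.2, 37.8 and 25.5 CPM, and Runx1 had 25.6, 22.2 and 16.4 CPM. In the third group 33.4%, 23.4% and 25.5% of Cebpa and 29.7%, 26% and 28.5% of Myb was left. For Mpo it was 29.5%, 18.1% and 23.2%. Cebpe, which drives specific granule genes, was instead at 174%, 166% and 151% of its first group level, and Spi1, the gene of PU.1, at 129%, 131% and 127%.
Of the 6 neighbours and relatives of the 4 genes, 5 lay under the minimum of 10 CPM. Lpo, next to Mpo, had 0 UMIs in each library, and Cfd, next to Elane, had 0.402, 0.479 and 0.209 CPM. Mcpt8, next to Ctsg, is a basophil protease and had 159, 37.8 and 26 CPM in young, control and old. The share of kept cells with markers of another cell type had the same order, and its part was not tested. Mcpt8 is itself among the markers used to call those cells, so the match of order is partly built in. In the first group of the specific granule order, without the called cells, Mcpt8 had 34.8, 23.7 and 65 CPM.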

How the data were processed

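CD133+ bone marrow cells were sequenced by the study with the 10x Genomics Chromium 3' v2 kit, 1 library per group. Per the labels, reads were processed with STAR and Cell Ranger 2.1.0 on mm10 (GRCm38), and the authors deposited raw UMI counts per gene and cell without normalization. Cells with under 200 genes, over 20% mitochondrial UMIs, or a UMI count outside the 5th to 95th percentile (control alone, young and old together) were left out, which leaves out the deepest cells. Doublets were not called. UMIs were summed over cells and given per 1000000 UMIs (CPM) with exact 95% Poisson intervals. Ratios have conditional exact binomial intervals, and shares Clopper-Pearson intervals. All cover counting error only. Depths were 74708327, 95980225 and 119588365 UMIs in the kept young, control and old cells. Each kept cell was thinned to 3000 UMIs for bins and sharing, with ties in rank taken in cell order. A gene past 1.5 times between 2 libraries, with at least 10 CPM in either, was counted as changed. The genes named are the 4 members, the pathway lists and the 10 genes most correlated with the sum of the 4 across cells. The members and lists were chosen with earlier results of these data known. Scripts were tested on simulated counts. The work was done in Python 3.11.15 with scipy 1.17.1, numpy 2.4.6, matplotlib 3.10.9 and pandas 2.3.3.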

Additional observations from a re-analysis of the deposited data

How the results depend on the processing

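Each group is 1 library, so no replicate could be left out. No paired analysis was possible because each group is 1 library and no test was made. No result that passed its limit changed sign under the alternatives run, but most values moved by more than their counting interval, which is narrow at these depths.
The log2 ratios of old over young for Mpo, Elane, Prtn3 and Ctsg were -0.65, -0.56, 0.043 and 0.31 with no limits on the UMI count, -0.86, -0.75, -0.14 and 0.12 without cells with markers of another cell type, and -0.52, -0.39, 0.21 and 0.44 as UMIs per cell. With the 6 bins weighted equally Elane had -0.74, Prtn3 -0.13 and Ctsg 0.093, and with the 4 genes left out of the denominator Elane had -0.69.
The log2 ratio of old over young for Ctsg relative to Elane, 0.84, was 0.87 without cells with markers of another cell type or without UMI limits, and 1.01 in cells with under 50 specific granule UMIs per 3000.
In the highest Retnlg and Mmp8 bin 25.9% of Mpo, 25.6% of Elane, 28.9% of Prtn3 and 28.7% of Ctsg was left, as the mean of the 3 libraries. The values were 23.9%, 23%, 26.1% and 25.4% without UMI limits and 22.9%, 20.4%, 23.7% and 23.8% from thinned counts, and without cells with markers of another cell type those of Elane and Prtn3 were 24.3% and 27.4%. Ordered by Ltf, Camp, Ngp and Lcn2, 4.48%, 5.02%, 7.08% and 3.36% was left in the top 10% of cells. The order of the genes thus depended on the axis, and the cause was not tested.
In the third group of the specific granule order the means were 23.6%, 43.5%, 38.6% and 12.4%. They were 20.4%, 38.1%, 34.5% and 10.7% with all Retnlg and Mmp8 bins included, and 22.7%, 42.9%, 37.9% and 11.3% with fixed windows. The order of the 4 genes was the same in these 3 settings. The 10% of cells highest for Mpo and for Elane shared 70.0% of their cells on average, 73.6% from full counts and 47.5% for the top 5%.
The number of genes lower in old than in young was 849, 149 with a minimum of 50 CPM and 263 at 2 times, and the number higher was 251, 117 and 102. Of the other values, 8 stayed within the counting interval and 38 moved.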
